A study of Homo sapiens with 3 samples.

Results

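The genes that copy DNA and supply its nucleotides were examined in PANC-1, an established human pancreatic carcinoma cell line. The set was a list of 43 gene symbols, covering origin licensing, the replisome and the synthesis of deoxynucleotides, and each symbol was found in the deposited table of 51136 genes. RNA-seq had been done on 3 libraries: an untreated control library, a library from cells given 200 μM ginsenoside Rg3 for 24 h, and a library from cells given 50 μM tamoxifen (TAM) for 24 h. Rg3 is a saponin of ginseng, and TAM is a modulator of the estrogen receptor. The study used Rg3 as an antiangiogenic agent and TAM as an inhibitor of protein kinase C, and the labels give no vehicle for the control. All cells shared one line, medium and serum, and the labels do not say how many cultures stand behind a library.

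Each condition had 1 library, so no difference below has a replicate check. Tests and intervals compare the reads of 2 libraries and cover counting error only. Treatment and culture cannot be told apart, and in bulk RNA neither can fewer cells expressing a gene and less of its RNA per cell. Both comparisons with the control use the same control library. The control library held 11300766 reads counted on genes, the Rg3 library 12861693 and the TAM library 11321442. Log2 fold changes were taken after TMM scaling, a scaling by the bulk of expressed genes that gave factors of 1.015, 1.12 and 0.877. A gene was called higher or lower when its fold was over 1.5 or under 0.67 and its adjusted p was under 0.05. Of the 4 markers fixed for PANC-1 cells (KRT8, KRT18, KRT19 and VIM), KRT8 had 15329, 7817 and 14411 counts in the control, Rg3 and TAM libraries. VIM had 55276, 39783 and 42048. With Rg3 all 4 were called lower, where 16.2% of all genes were. With TAM KRT19 was called lower, by 1.67 on the log2 scale, and the other 3 were not called, where 18.4% of all genes were called lower. Among markers of other cell types, CD68 had 615, 426 and 1100 counts, whereas PTPRC, CD3E, PECAM1, INS, PRSS1, ALB and PDGFRA had at most 1 count in any library. Whether CD68-expressing cells or a change in the PANC-1 markers play a part in the results was not tested.

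DNA replication starts in G1, when the origin recognition complex, CDC6 and CDT1 load the ring-shaped MCM2-7 helicase onto origins. In S phase, CDC45 and GINS join MCM2-7 to form the active CMG helicase, polymerase alpha-primase lays primers, and polymerases epsilon and delta extend the strands on the PCNA clamp. Many genes of this machinery are textbook targets of the E2F transcription factors, and deoxynucleotides come from ribonucleotide reductase, thymidylate synthase and thymidine kinase.

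In the set of RefSeq promoter windows used here (GRCh38), 37 of the 43 genes had an entry. Windows ran from 250 bases before to 50 bases after the annotated start. The remaining members, GINS4, RPA3, MCM4, MCM5, POLD3 and RPA2, had no entry in that set, which does not mean that RefSeq lacks them. The windows were searched on both strands for the E2F-type octamers TTTCGCGC, TTTGGCGC and TTTCCCGC. One or more of them occurred in 18 of the 37 genes (48.6%), against 3.30% of 27305 genes with a window. CCAAT occurred in 22 of the 37 (59.5%, against 39.7%), the GC box GGGCGG in 28 (75.7%, against 48.3%), and TTTGAA, the core of the cell cycle homology region of G2/M promoters, in 2 (5.41%, against 18.2%). A match describes letters in a window and not a bound site. The windows of 5 members whose counts carry the results are printed 5′ to 3′ with every E2F-type match in capitals. MCM2 (chr3:127598161-127598460, plus strand), MCM6 (chr2:135876394-135876693, minus strand) and MCM7 (chr7:100101348-100101647, minus strand, the first of its 3 entries) encode subunits of the same helicase. LIG1 (chr19:48170295-48170594, minus strand) was the member furthest below the control with Rg3, and RFC1 (chr4:39366313-39366612, minus strand), which held no E2F-type match, was the furthest above it.
MCM2: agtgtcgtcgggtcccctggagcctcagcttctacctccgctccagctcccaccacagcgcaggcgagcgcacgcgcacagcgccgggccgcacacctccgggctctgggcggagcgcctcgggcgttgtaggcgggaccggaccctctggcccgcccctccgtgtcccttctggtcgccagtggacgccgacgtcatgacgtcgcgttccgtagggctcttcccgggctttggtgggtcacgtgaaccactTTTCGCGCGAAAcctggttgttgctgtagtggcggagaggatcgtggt
MCM6: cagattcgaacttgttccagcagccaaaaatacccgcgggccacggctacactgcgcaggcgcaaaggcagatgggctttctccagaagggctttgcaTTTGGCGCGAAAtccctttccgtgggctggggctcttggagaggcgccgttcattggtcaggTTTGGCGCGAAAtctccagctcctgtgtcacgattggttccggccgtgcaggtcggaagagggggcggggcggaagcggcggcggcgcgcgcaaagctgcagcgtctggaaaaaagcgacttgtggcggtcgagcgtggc
MCM7: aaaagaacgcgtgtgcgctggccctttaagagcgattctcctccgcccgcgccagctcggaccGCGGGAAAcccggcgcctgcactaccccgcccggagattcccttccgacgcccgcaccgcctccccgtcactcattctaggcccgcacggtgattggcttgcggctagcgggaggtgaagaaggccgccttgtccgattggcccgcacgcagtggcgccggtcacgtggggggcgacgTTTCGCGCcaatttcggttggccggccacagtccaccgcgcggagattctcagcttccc
LIG1: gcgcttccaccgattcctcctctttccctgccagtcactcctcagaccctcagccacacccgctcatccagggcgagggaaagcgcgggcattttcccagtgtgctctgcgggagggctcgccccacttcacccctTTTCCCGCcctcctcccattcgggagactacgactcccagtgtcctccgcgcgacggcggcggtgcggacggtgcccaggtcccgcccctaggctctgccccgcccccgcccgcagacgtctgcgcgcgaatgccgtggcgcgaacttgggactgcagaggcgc
RFC1: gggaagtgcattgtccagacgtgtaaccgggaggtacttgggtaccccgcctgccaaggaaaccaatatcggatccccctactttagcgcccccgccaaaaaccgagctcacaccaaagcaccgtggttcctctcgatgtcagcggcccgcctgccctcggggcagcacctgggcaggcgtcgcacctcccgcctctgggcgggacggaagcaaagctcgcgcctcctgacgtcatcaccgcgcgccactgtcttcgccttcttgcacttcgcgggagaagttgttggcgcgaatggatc
In MCM2 and in both stretches of MCM6, matches on opposite strands overlap, which gives 2 matches in MCM2 and 4 in MCM6. MCM7 held 2 separate matches and LIG1 held 1.

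Every one of the 43 genes had at least 10 counts in each library. Together they took 50123 control counts, 52685 Rg3 counts and 51848 TAM counts, which were 0.444%, 0.410% and 0.458% of the reads counted on genes. The lowest count was 50, for POLE2 in the control library, and the highest 5516, for MCM7 in the TAM library. On the scale of CPM (counts per 1000000 of the TMM-scaled total) per kilobase of transcript, the median level of the 43 genes was 19.7 for control cells, 14.7 under Rg3 and 26.5 under TAM. These medians fell on different genes, POLE, CDC45 and RFC4 in that order, and are not a fold change of the set. TYMS stood at the top in every library, at 194, 158 and 266 on that scale, followed in the control library by TK1 at 138, POLD2 at 131 and MCM7 at 131. POLA1 stood at the bottom in every library, at 1.69, 2.32 and 1.06. The levels per length of subunits of one complex thus differed severalfold within a library, as the plot of scaled counts by gene shows for levels not divided by length.

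**Figure D1:**
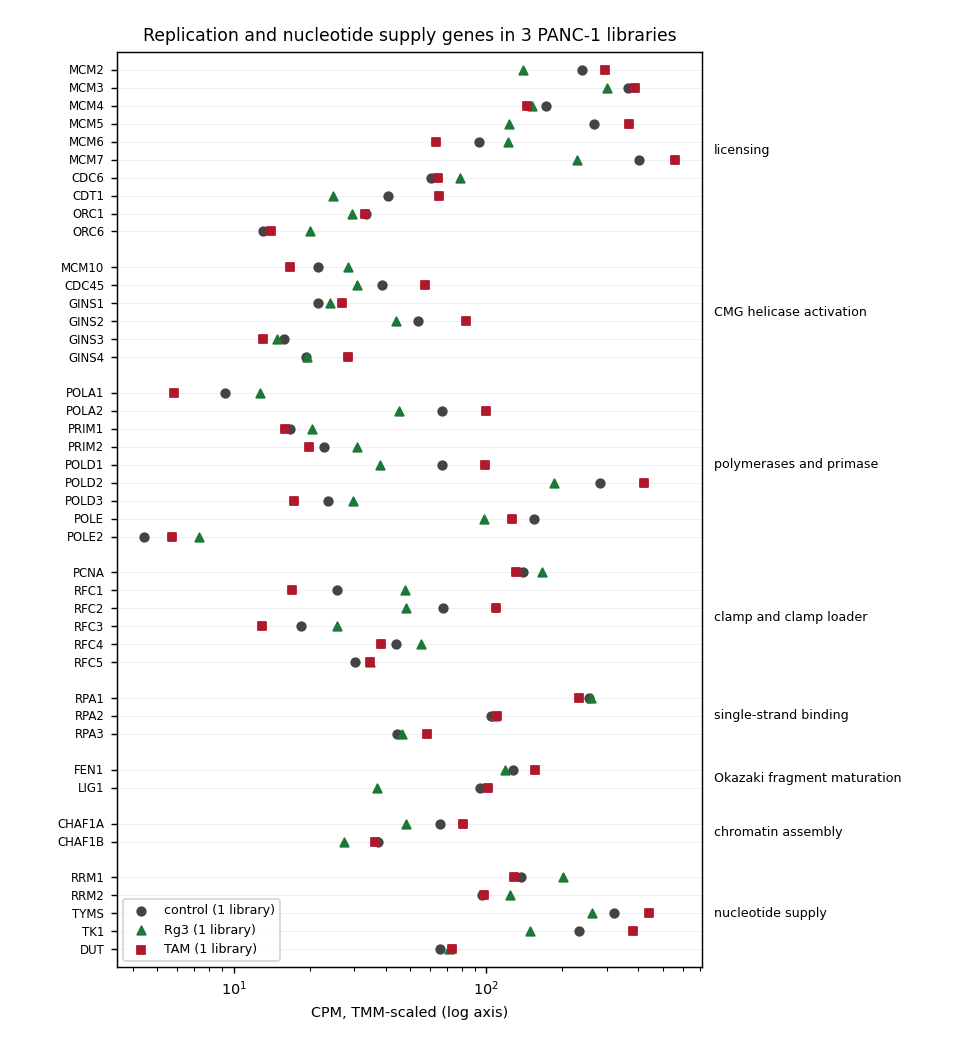
CPM after TMM scaling (log axis) of the 43 genes, grouped by role, with 1 point for each of the control, Rg3 and TAM libraries and no error bars, since each condition had 1 library. TYMS, TK1, POLD2, MCM7, MCM5 and MCM2 lie in the order Rg3, control, TAM from left to right, whereas MCM6, RFC1 and POLA1 lie in the opposite order.

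With Rg3, 9 of the 43 genes were called lower than in the control library and 3 higher. Over all 16487 genes compared, 16.2% were called lower and 20.2% higher. The called genes came from different steps: LIG1, MCM5, MCM7, MCM2, POLD1, CDT1, POLE, TK1 and POLD2 fell, and RFC1, POLE2 and ORC6 rose. The median log2 fold change of the 43 genes was 0.015, against 0.035 over all genes compared, with 22 genes above 0 and 21 below. The 95% interval left out 0 for 34 genes, and 20 genes had an adjusted p under 0.05 with a fold inside the limits. With TAM, 4 genes were called higher than in the control library and 2 lower, where 14.0% of 16079 genes were called higher and 18.4% lower. TK1, RFC2, CDT1 and GINS2 rose, and POLA1 and RFC1 fell. The median log2 fold change was 0.10, against -0.023 over all genes, with 26 genes above 0 and 17 below, and the interval left out 0 for 28 genes. No gene was called in the same direction in both treated libraries. RFC1 was called higher with Rg3 and lower with TAM, and CDT1 and TK1 lower with Rg3 and higher with TAM. The share of all genes with calls in both treated libraries was not computed under any setting. Over all genes with at least 50 counts, fold changes followed GC content in opposite directions with Rg3 and TAM (Spearman's rho of -0.82 and 0.52). Opposite calls are therefore not read as a trait of the 43 genes.

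These counts moved with the scaling. Division by library totals put every log2 fold change with Rg3 0.15 higher and every one with TAM 0.21 lower than TMM did. With Rg3 it left 7 genes called higher and 5 called lower, where 26.5% and 10.6% of all genes were called. With TAM it left 0 called higher and 6 called lower, where 6.97% and 26.9% of all genes were. On that scaling CDT1 and TK1 were called in neither treated library, and RFC1, RFC3 and POLA1 were the genes with opposite calls. DESeq2's size factors gave 9 genes higher and 1 lower with TAM, against 15.4% and 17.3% of all genes. These calls did not outlast an assumed spread between cultures. In edgeR's exact test with an assumed coefficient of variation of 0.2, 0 of the 43 genes passed in either comparison with the control. With Rg3 that test called 0.376% of all genes higher and 0.570% lower, and with TAM 0.684% and 2.26%. At an assumed variation of 0.4 it called 0 of the 43 in any comparison, with 0.00607% of all genes lower with Rg3, 0.00622% lower with TAM and 0 in the other direction.

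**Figure D2:**
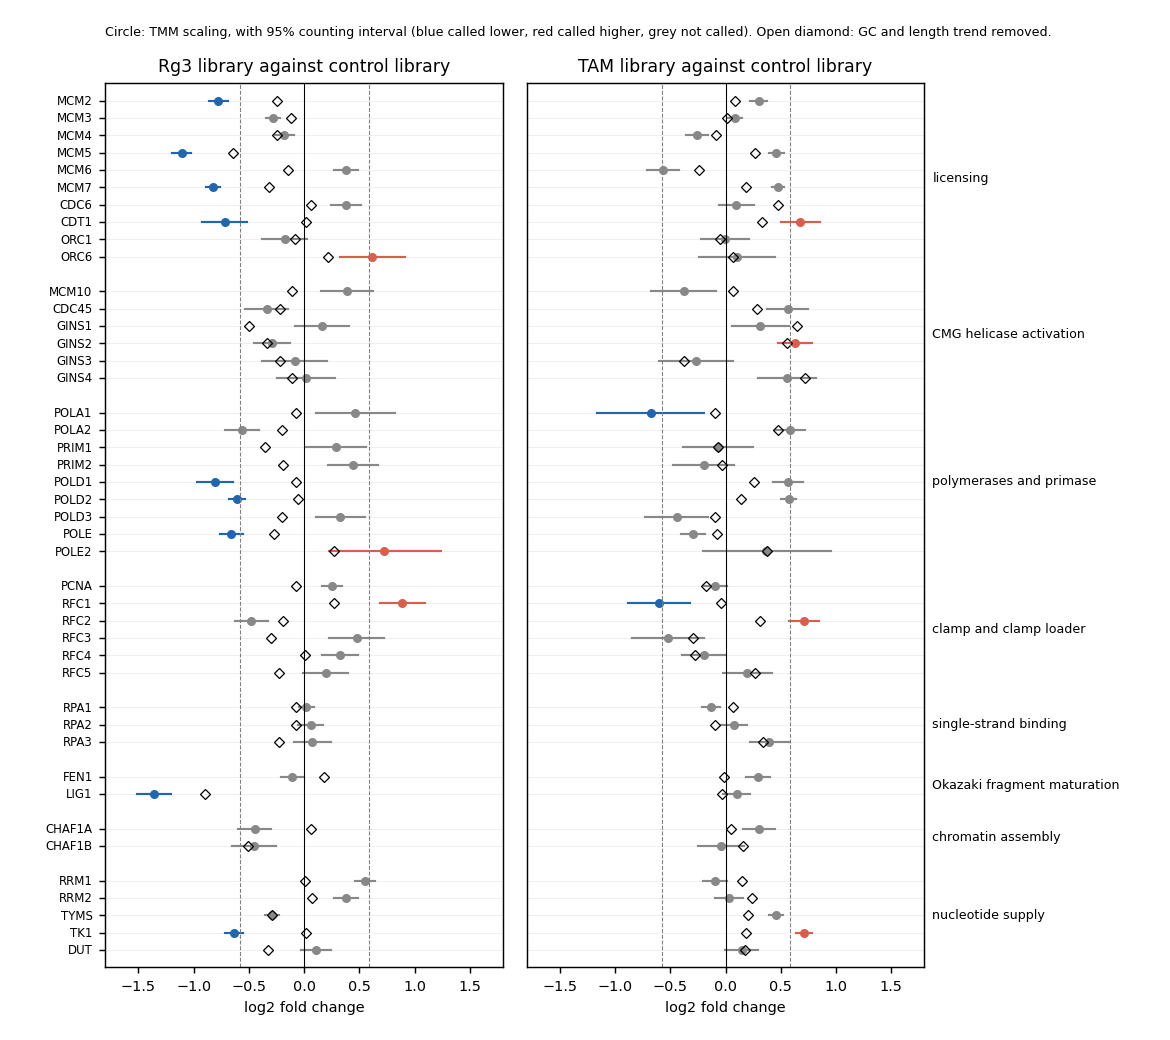
Log2 fold change of each of the 43 genes in the Rg3 library (left) and the TAM library (right) against the control library, as circles with 95% counting intervals after TMM scaling and as open diamonds once the trend with transcript GC and length was taken out. Dashed lines mark the fold limits of 1.5 and 0.67. With Rg3, 9 circles are marked lower and 3 higher, and most diamonds lie nearer 0 than their circles.

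The 10 licensing genes held 5 of the 12 calls with Rg3, 4 lower and 1 higher, where 16.2% and 20.2% of all genes were called. With the trend on transcript GC and length removed, as described further on, 1 of the 10 was called lower and 0 higher. MCM2, MCM5 and MCM7, which with MCM3, MCM4 and MCM6 form the helicase ring, fell. MCM5 (chr22:35400063-35425430) had 3029 control counts, 1769 Rg3 counts and 3612 TAM counts. It fell with Rg3 by 1.11 on the log2 scale (95% interval -1.20 to -1.02, adjusted p 3.8e-150 by the exact binomial test with Benjamini-Hochberg adjustment). MCM7 (chr7:100092728-100101940) had 4575, 3260 and 5516 counts in the same order and fell by 0.82 (-0.89 to -0.76), and MCM2 (chr3:127598223-127622436) had 2712, 1996 and 2894 and fell by 0.78 (-0.86 to -0.69). With TAM the 3 genes were above the control library without passing the fold limit, at 0.46, 0.48 and 0.30. Exons of MCM2 overlap TPRA1 and AC023593.1 on the opposite strand, and those of MCM7 overlap AP4M1. Whether counting used strand is not given in the sources used here.

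The other ring subunits gave other values. MCM3 had 4150, 4307 and 3813 counts in the control, Rg3 and TAM libraries, a log2 fold change of -0.28 with Rg3 and 0.09 with TAM. MCM4 had 1956, 2179 and 1420, with -0.18 and -0.25. MCM6 (chr2:135839626-135876426) had 1062, 1743 and 620 counts and lay on the other side of the control from MCM2, MCM5 and MCM7 in both treated libraries, with 0.38 (0.27 to 0.49) with Rg3 and -0.57 (-0.71 to -0.42) with TAM, neither called. The 6 subunits, which assemble in equal numbers, thus lay on both sides of the control under TMM scaling. Once the trend with transcript GC and length described further on was taken out, all 6 lay below it in the Rg3 library, between -0.12 for MCM3 and -0.64 for MCM5, and MCM5 alone was called. Of the 43 genes, 32 then lay below the control with Rg3, so this side was not particular to the ring.

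Loading factors were split as well. CDT1 (chr16:88803213-88809258), which brings MCM2-7 to the origin, had 463, 355 and 642 counts. It fell with Rg3 by 0.72 (-0.92 to -0.51) and rose with TAM by 0.68 (0.50 to 0.85). CDC6, the ATPase that helps load the helicase, had 686, 1125 and 635 counts and was not called, with 0.38 and 0.10. ORC1, the largest subunit of the origin recognition complex, had 378, 422 and 326 counts, and both intervals included 0. ORC6, its smallest subunit, had 148, 286 and 138 counts and rose with Rg3 by 0.62 (0.33 to 0.91), while its value with TAM, 0.11 (-0.24 to 0.45), included 0. With TAM, CDT1 was the licensing gene furthest above the control and MCM6 the furthest below.

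None of the 6 genes of CMG activation was called with Rg3, where their log2 fold changes ran from -0.34 for CDC45 to 0.39 for MCM10. CDC45, the helicase cofactor, had 441, 440 and 564 counts in the control, Rg3 and TAM libraries and lay at 0.56 with TAM. MCM10, which acts as the helicase is set in motion, had 246, 406 and 164 counts and lay at -0.38 with TAM, the lowest value of the group. Of the 4 GINS subunits, GINS2 (chr16:85676198-85690073) had 610, 629 and 816 counts and rose with TAM by 0.63 (0.47 to 0.78), with an adjusted p of 2.5e-15 by the exact binomial test. GINS1 had 244, 344 and 263 counts, GINS3 179, 213 and 129, and GINS4 219, 279 and 279. With TAM they lay at 0.32, -0.27 and 0.56, below the fold limit. With Rg3 the intervals of GINS1, GINS3 and GINS4 included 0. Exons of GINS3 and GINS4 overlap noncoding genes on the opposite strand, by 558 and 1290 bases.

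Polymerase subunits moved both ways with Rg3. POLD1 (chr19:50384204-50418016), the catalytic subunit of polymerase delta, had 756, 545 and 970 counts and fell by 0.81 (-0.97 to -0.65). POLD2, which links the subunits of that enzyme, had 3217, 2662 and 4147 counts and fell by 0.61 (-0.68 to -0.53). POLE, the catalytic subunit of the leading strand polymerase epsilon, had 1757, 1403 and 1242 counts and fell by 0.66 (-0.76 to -0.56). In contrast, POLE2, the accessory subunit of polymerase epsilon, rose by 0.72 (0.22 to 1.24) from 50 counts to 104, with 56 counts in the TAM library. POLD3, an accessory subunit of polymerase delta, had 268, 424 and 171 counts and lay at 0.33 with Rg3 and -0.44 with TAM. Subunits of one enzyme thus lay on both sides of the control with Rg3. With the trend on transcript GC and length removed, POLD1 lay at -0.07, POLD2 at -0.06, POLE at -0.27, POLD3 at -0.20 and POLE2 at 0.27, and none was called.

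In the TAM library the polymerase gene called was POLA1 (chrX:24693919-24996986), the catalytic subunit of polymerase alpha. It had 105, 182 and 57 counts and fell by 0.67 (-1.17 to -0.20, adjusted p 0.0097 by the exact binomial test), and at these counts its interval was among the widest. POLA2, its second subunit, had 759, 648 and 984 counts and lay at -0.56 with Rg3 and 0.58 with TAM, both just inside the fold limits. PRIM1, the catalytic primase subunit, had 190, 292 and 157 counts, and PRIM2, its partner, 258, 441 and 195. They lay at 0.29 and 0.44 with Rg3 and at -0.07 and -0.20 with TAM, and none of these was called. Several of these genes share sequence with other annotated genes, so that their reads may be divided in counting. Of the stretches of 50 bases in the transcripts, 54.1% recur in another gene for POLA2 (mainly AP000944.2), 31.3% for PRIM2, 23.3% for PRIM1 and 10.9% for POLD1.

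The clamp loader held a gene called in both treated libraries, in opposite directions. RFC1 (chr4:39287456-39366375), the large subunit of replication factor C, had 292 control counts, 682 Rg3 counts and 167 TAM counts. It rose with Rg3 by 0.89 (0.69 to 1.09, adjusted p 7.6e-19 by the exact binomial test) and fell with TAM by 0.60 (-0.88 to -0.32). RFC2 (chr7:74231499-74254458), a small subunit, had 764, 692 and 1080 counts and lay on the opposite side, at -0.48 with Rg3, not called, and higher with TAM by 0.71 (0.57 to 0.84). Of the other small subunits, RFC3 had 210, 368 and 127 counts, RFC4 499, 788 and 377, and RFC5 343, 495 and 341. RFC3 lay at 0.48 and -0.52 (-0.30 and -0.29 with the trend on transcript GC and length removed), RFC4 at 0.33 and -0.20, and RFC5 at 0.20 in both, all without a call. PCNA, the sliding clamp itself and a common marker of proliferating cells, had 1583, 2376 and 1285 counts and was not called, at 0.25 (0.16 to 0.34) with Rg3 and -0.09 (-0.20 to 0.01) with TAM.

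The 3 subunits of replication protein A, which coats single-stranded DNA, lay close to the control with Rg3, with log2 fold changes between 0.02 and 0.08 and intervals that included 0, and between 0.17 and 0.22 with library totals. RPA1 had 2903, 3711 and 2294 counts, RPA2 1185, 1556 and 1082, and RPA3 502, 667 and 573. With TAM they lay at -0.13, 0.08 and 0.40, none of them called. Exons of RPA1 overlap SMYD4 and those of RPA3 overlap UMAD1 on the opposite strand.

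LIG1 and FEN1 complete Okazaki fragments, FEN1 by cutting the flap and LIG1 by sealing the nick, and they differed in the Rg3 library. LIG1 (chr19:48115445-48170603) had 1074 control counts, 529 Rg3 counts and 997 TAM counts. It fell with Rg3 by 1.36 (-1.51 to -1.20, adjusted p 1.9e-73 by the exact binomial test), a fold of 0.391 and the lowest of the 43 genes. In the TAM library its value of 0.10 (-0.03 to 0.23) included 0. FEN1 had 1447, 1694 and 1537 counts and lay at -0.11 with Rg3 and 0.29 with TAM, neither called. CHAF1A and CHAF1B, subunits of the CAF-1 complex that places histones behind the fork, had 744, 688 and 795 counts and 425, 391 and 358 counts. Both lay at -0.45 with Rg3, inside the fold limit, and at 0.30 and -0.04 with TAM.

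Among the genes of nucleotide supply, TK1 (chr17:78174075-78187233), the cytosolic thymidine kinase of the salvage pathway, had 2639, 2141 and 3731 counts. It fell with Rg3 by 0.64 (-0.72 to -0.55) and rose with TAM by 0.71 (0.63 to 0.78). TYMS (chr18:657604-673578), which makes thymidylate in the de novo pathway, had 3655, 3762 and 4343 counts and was not called, at -0.29 (-0.36 to -0.23) and 0.46 (0.39 to 0.52). Its exons overlap ENOSF1 and TYMSOS on the opposite strand over 1150 bases. RRM1, the large subunit of ribonucleotide reductase, had 1564, 2894 and 1271 counts, and at 0.55 (0.46 to 0.64) with Rg3 it was the highest gene of this group there without reaching the fold limit. RRM2, its small subunit, had 1088, 1780 and 963 counts and lay at 0.38 with Rg3 and 0.03 with TAM, with 29.6% of its 50-base stretches shared, mainly with AC007240.1. DUT, which removes dUTP, had 748, 1017 and 717 counts, and both its intervals included 0. TK1 and TYMS were below the control with Rg3 and above it with TAM, and both reductase subunits were above it with Rg3. With the trend on transcript GC and length removed, TK1 lay at 0.02 and TYMS at -0.29 with Rg3, and RRM1 and RRM2 at 0.01 and 0.07.

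The treated libraries were also compared with each other, although dose and agent both differed. With TAM against Rg3, 14 of the 43 genes were called higher and 8 lower, where 27.3% and 30.7% of 16493 genes were called. MCM5 was furthest apart, higher with TAM by 1.57 (1.49 to 1.65), followed by LIG1 at 1.46, CDT1 at 1.40, POLD1 at 1.37 and TK1 at 1.34. RFC1 lay furthest the other way, at -1.49 (-1.74 to -1.24), followed by POLA1 at -1.13, RFC3 at -0.99 and MCM6 at -0.95. With library totals the counts were 10 higher and 15 lower, against 16.5% and 41.0% of all genes. With an assumed variation of 0.2 they were 10 higher and 2 lower (RFC1 and POLA1), against 13.2% and 17.6%.

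The fold changes of the 43 genes followed the base composition of their transcripts. GC content of the longest GENCODE 29 transcript ran from 39.1% (RFC3) to 65.0% (POLD1), with a median of 48.1%. With Rg3 the log2 fold change decreased as GC content increased, with a Spearman's rho of -0.91 and a Pearson's r of -0.87 across the 43 genes, and of -0.82 and -0.78 across 11583 genes with at least 50 counts. With TAM it increased with GC content, with 0.64 for both measures across the 43 genes, and with 0.52 and 0.47 across 11022 genes. It also decreased with transcript length with TAM, with a Spearman's rho of -0.34 across the 43 genes and -0.48 across the 11022 genes. With Rg3, rho with length was -0.06 across the 43 genes and 0.21 across the 11583 genes. These are descriptions across genes of 2 libraries. All genes of a comparison come from the same 2 libraries, both comparisons share the control library, and genes are not independent replicates. Of the 16 genes with at least 50% GC, 9 were called lower and 0 higher with Rg3, where 33.3% and 1.74% of all genes of that composition were called. Of the 27 genes under 50%, 0 were called lower and 3 higher, where 1.95% and 38.2% were. With TAM, 3 genes were called higher and 0 lower at 50% GC or more, where 23.9% and 8.79% of all genes were called. Under 50% GC, 1 was called higher and 2 lower, where 4.76% and 29.1% were.

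**Figure D3:**
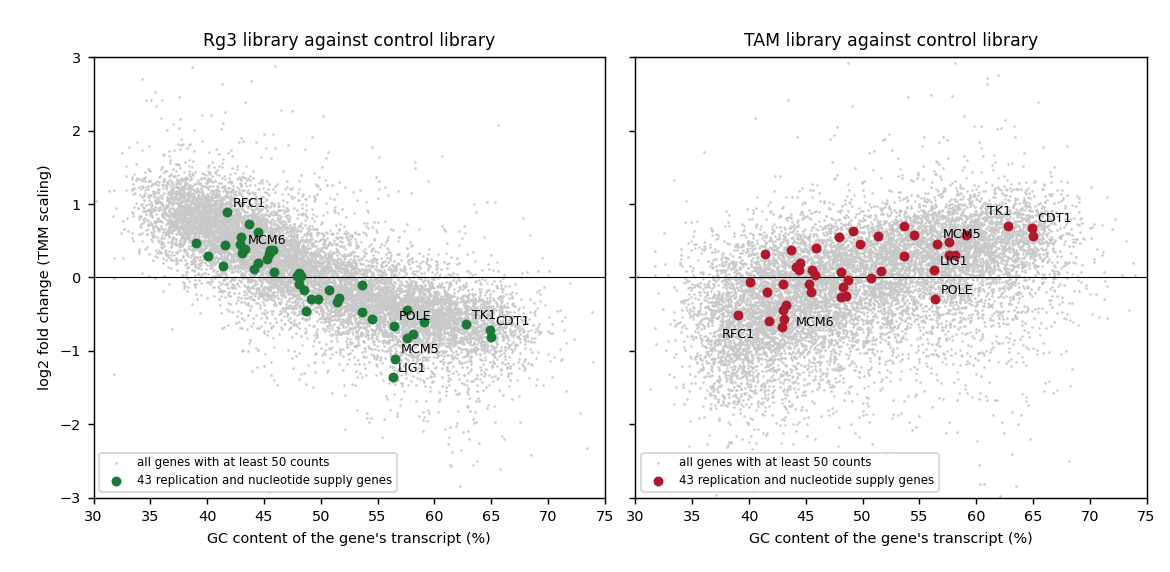
Log2 fold change after TMM scaling against GC content of the transcript (%), for the Rg3 library (left) and the TAM library (right) against the control library. Grey points are all genes with at least 50 counts and coloured points the 43 genes, and grey points beyond 3 on the log2 scale are not drawn. The coloured points lie within the grey cloud, which descends with Rg3 and ascends with TAM, and LIG1 and MCM5 lie below their neighbours with Rg3.

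When a smooth trend on GC content and transcript length, fitted over all genes with at least 50 counts, was removed, most calls were lost. With Rg3, 2 of the 43 genes were still called lower and 0 higher, against 6.62% and 4.80% of all genes. These were LIG1, with -0.90 (-1.05 to -0.75), and MCM5, with -0.64 (-0.73 to -0.56). Next to them lay CHAF1B at -0.51 and GINS1 at -0.50, which were inside the fold limit. The median of the 43 genes was -0.144, against 0.003 over all genes, with 11 genes above 0 and 32 below. CDT1 and TK1, called lower before, lay at 0.01 and 0.02, RFC1 at 0.27 and POLD1 at -0.07. With TAM, the genes called before were called no longer, with CDT1 at 0.33, TK1 at 0.19, RFC2 at 0.31, GINS2 at 0.56, RFC1 at -0.04 and POLA1 at -0.09. In their place GINS4, at 0.72 (0.46 to 0.98), and GINS1, at 0.65 (0.39 to 0.90), were called higher, so that 2 of the 43 genes were called higher and 0 lower, against 9.51% and 11.4% of all genes. With TAM against Rg3, 7 genes were called higher (GINS1, GINS2, MCM5, LIG1, GINS4, CHAF1B and POLA2) and 0 lower, against 14.7% and 14.9%. With 2 of the 43 genes then called in each treated library against the control, no gene was called in both. The share of all genes called in both was not computed, so this is not read as a trait of the 43 genes.

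Ratios between subunits of one complex within a library do not depend on the scaling between libraries. For each of 9 complexes the subunit of highest GC content was set against that of lowest GC content, as counts per kilobase of transcript. Since the fold changes of the 43 genes followed GC content, pairs chosen this way largely restate that trend and are no separate test of it. MCM2 stood at 2.63 times MCM6 in control cells, at 1.18 times under Rg3 and at 4.81 times under TAM. The log2 change of that ratio was -1.16 (-1.30 to -1.02) with Rg3 and 0.87 (0.71 to 1.03) with TAM. RFC2 over RFC3 was 5.16, 2.66 and 12.1 in the same order, POLD1 over POLD3 3.06, 1.40 and 6.16, POLA2 over PRIM1 1.49, 0.826 and 2.33, and GINS2 over GINS1 3.04, 2.22 and 3.77. In each of these 5 complexes the ratio was lowest with Rg3 and highest with TAM, and both intervals of change left out 0. Polymerase epsilon differed, since POLE over POLE2 was 8.03, 3.08 and 5.07 and was lower in both treated libraries, with changes of -1.38 (-1.91 to -0.87) and -0.66 (-1.25 to -0.08). RPA1 over RPA3 was 2.69, 2.59 and 1.86, RRM2 over RRM1 0.583, 0.515 and 0.635, and CHAF1A over CHAF1B 2.35, 2.36 and 2.98. The GC contents of the paired subunits were closest in replication protein A (48.2% and 45.9%) and ribonucleotide reductase (45.8% and 42.98%). In CAF-1 they were 57.6% and 48.7%, further apart than in GINS (49.1% and 41.4%), yet the CAF-1 ratio hardly changed with Rg3. After the trend was removed, the change of MCM2 over MCM6 was -0.10 with Rg3 and 0.32 with TAM. The other 4 of the 5 ratios then lay above 0 with Rg3, at 0.16 for GINS2 over GINS1, 0.11 for RFC2 over RFC3, 0.16 for POLA2 over PRIM1 and 0.13 for POLD1 over POLD3. With TAM they lay at -0.09, 0.60, 0.54 and 0.36. The change of POLE over POLE2 was then -0.54 with Rg3 and -0.45 with TAM. In the same order, CHAF1A over CHAF1B lay at 0.57 and -0.11, RPA1 over RPA3 at 0.15 and -0.27, and RRM2 over RRM1 at 0.06 and 0.09. Whether base composition, transcript length, RNA quality or the treatment itself sets these ratios was not tested.

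**Figure D4:**
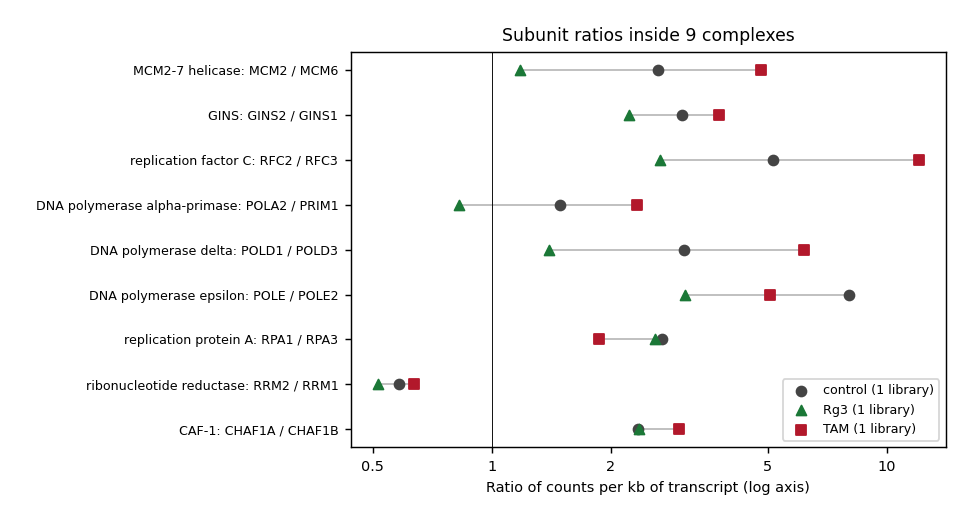
Ratio of counts per kilobase of transcript between the subunits of highest and lowest GC content in 9 complexes (log axis), with 1 point for each library and a line that spans them. The ratio is lowest with Rg3 and highest with TAM for the helicase ring, GINS, replication factor C, polymerase alpha-primase, polymerase delta and ribonucleotide reductase, and not for polymerase epsilon, replication protein A and CAF-1.

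Other genes of the same pathways, taken from lists chosen with earlier results of these data known, were counted in the same way, and their counts stand against 20.2% of all genes called higher and 16.2% lower with Rg3, and 14.0% and 18.4% with TAM. Of 18 further genes of origin licensing and firing, Rg3 had 9 called higher and 1 called lower, with a median log2 fold change of 0.56, and TAM had 1 called higher and 7 called lower, with a median of -0.48. ORC4 and ORC5, of the origin recognition complex, rose with Rg3 by 1.35 (1.07 to 1.65) and 1.16 (0.81 to 1.53), and MCM8, a helicase of recombination, by 0.99, whereas RECQL4, a helicase of origin firing, fell by 0.77. With TAM, TOPBP1, an activator of firing and of checkpoint signalling, fell by 1.497 (-1.702 to -1.30), MCM9 by 1.25 and MCM8 by 1.07, and RECQL4 rose by 0.72. After removal of the trend, 0 of the 18 were called with Rg3, and 2 were called lower with TAM, TOPBP1 at -0.85 and MCM9 at -0.81. Over all genes, removal of the trend left 4.80% called higher and 6.62% lower with Rg3, and 9.51% and 11.4% with TAM.

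Of 30 further genes of nucleotide synthesis and salvage, 8 were called higher and 4 called lower under Rg3 (median -0.19), and 5 called higher and 3 called lower under TAM (median 0.10). RRM2B, the p53-inducible reductase subunit, rose with Rg3 by 1.30 and fell with TAM by 1.06, and SAMHD1, which breaks down deoxynucleotides, rose by 0.86 and fell by 0.62. DHODH and CAD, enzymes of pyrimidine synthesis, fell with Rg3 by 0.95 and 0.79, and DTYMK, which phosphorylates thymidylate, rose with TAM by 1.04. Of 18 further fork and chromatin replication genes, 4 were called in each direction under Rg3 and 3 in each direction under TAM. UHRF1, which recruits the maintenance methyltransferase, fell with Rg3 by 1.05 (-1.22 to -0.89), and DNA2, a nuclease of the fork, rose by 0.86 and fell with TAM by 1.09. RNASEH2A, a subunit of the enzyme that removes ribonucleotides, fell with Rg3 by 0.76 and rose with TAM by 0.70. After removal of the trend, 2 of the 30 nucleotide genes were called lower with Rg3 (DHODH at -0.68 and ADSL at -0.63), and 2 of the 18 fork genes were (UHRF1 at -0.69 and RNASEH2A at -0.61), with 0 higher in either list. With TAM, 4 of the 30 nucleotide genes were then called higher and 0 lower, and 4 of the 18 fork genes higher and 1 lower. RRM2B (0.37 with Rg3, -0.37 with TAM) and SAMHD1 (0.58 and -0.20) were then called in neither treated library, nor was DTYMK with TAM (0.51), CAD with Rg3 (-0.31), DNA2 (-0.02 and -0.50) or RNASEH2A with TAM (0.55). With an assumed variation of 0.2, 1 of the 18 licensing and firing genes was called lower with TAM, and no other gene of the 3 lists was called against the control.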

How the data were processed

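The authors sequenced total RNA on the Ion Proton platform, checked reads with FAST-QC and aligned them with TopHat, and the methods also name MAQ. The submitters' processing notes give GRCh38. They deposited raw read counts per gene symbol, without normalization, in 1 table of 51136 genes, and all value columns belonged to a mapped library. The counting tool, annotation and use of strand are not given in the sources used here. Depth was 11300766, 12861693 and 11321442 counts in the control, Rg3 and TAM libraries. The members and gene lists were chosen with earlier results of these data known.

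TMM factors came from edgeR 4.0.16 (R 4.3.3), over genes with at least 10 counts in any library. Comparisons took genes that reached 10 counts in one library or the other, in Python 3.11.15 with scipy 1.17.1. For folds, 3 was the lowest count used. Reads of a gene were tested with an exact two-sided binomial test, Benjamini-Hochberg adjusted over all genes compared, and calls needed a fold beyond 1.5 or 0.67 with adjusted p under 0.05. Intervals were 95% Clopper-Pearson intervals and cover counting error only. The Limma criteria of the methods and edgeR's quasi-likelihood test require replicates, and with a single library for each condition neither was run. The steps were tested on simulated data.

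Alternatives were library totals, DESeq2 1.42.0 size factors, filters of 1 or 50 counts, edgeR's exact test at an assumed variation of 0.2 or 0.4, the fold alone, and removal of a loess trend (span 0.3) on GC content and length of the longest GENCODE 29 transcript, known for 86.6% (Rg3), 87.2% (TAM) and 86.5% (TAM against Rg3) of genes compared. Coordinates and overlaps are those of GENCODE 29 on GRCh38, matched by symbol. Counts are given for each of the 43 genes. Folds with intervals are given for genes called against the control, for the extremes of a role and where a sentence turns on a gene not being called. From each other list, up to 3 called genes in each direction with at least 50 counts were eligible, the largest folds first, and a selection is printed. Genes called after removal of the trend were named after their values were seen.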

Additional observations from a re-analysis of the deposited data

How the results depend on the processing

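No paired analysis was possible because there was a single library per group, and for the same reason no library could be left out. Over 129 values (43 genes in 3 comparisons), filters of at least 1 or at least 50 counts changed none, and DESeq2's size factors weakened 1 call and added 5. Counts are given as higher and lower, for Rg3 against control, TAM against control and TAM against Rg3. They were 3 and 9, 4 and 2, and 14 and 8 with TMM scaling. Library totals gave 7 and 5, 0 and 6, and 10 and 15, and moved the medians to 0.163, -0.110 and -0.203. DESeq2's size factors gave 9 and 1 for TAM against control. An assumed variation of 0.2 gave 0 and 0, 0 and 0, and 10 and 2, and one of 0.4 gave 0 throughout. After the trend with transcript GC and length was taken out, counts were 0 and 2, 2 and 0, and 7 and 0, and the median with Rg3 was -0.144. Under that removal 40 of the 129 values changed sign, as 16 did with library totals. Of the 40, 8 had been called with TMM scaling. For Rg3 against control these were CDT1 (0.0143) and TK1 (0.0163). For TAM against Rg3 they were MCM10 (0.194), RFC3 (0.0122), PRIM2 (0.166), POLD3 (0.118), RRM1 (0.141) and CHAF1A (-0.0199). The cause of these shifts was not tested. Spread between cultures is unknown, and at 50 to 105 counts (POLE2 and POLA1 in the control library) intervals span about a log2 unit.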

Other observations

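Lists next to the replication genes were counted in the same way, as descriptions of these libraries. For scale, TMM scaling called 20.2% of all compared genes higher in the Rg3 library and 16.2% lower. For the TAM library these shares were 14.0% and 18.4%. Removal of the trend with transcript GC and length changed them to 4.80% and 6.62% (Rg3) and 9.51% and 11.4% (TAM). An assumed variation of 0.2 gave 0.376% and 0.570% (Rg3) and 0.684% and 2.26% (TAM). List counts near these shares are not read as traits of a list. With an assumed variation of 0.2, 0 genes of the checkpoint, E2F and RB, and mitotic lists were called with Rg3, and with TAM 2, 1 and 3 were called lower and 0 higher. Of 15 genes of the S phase checkpoint and fork protection, 7 were called higher and 1 called lower under Rg3 (median log2 fold change 0.52), and 1 called higher and 5 called lower under TAM (median -0.27). With TAM, ATM and ATR, the apical checkpoint kinases, fell by 1.65 (298 counts to 82) and 1.61 (233 counts to 66), and with Rg3 ATR rose by 0.76. TIPIN, of the fork protection complex, rose with both agents, by 1.01 and 0.62, while its partner TIMELESS fell with Rg3 by 0.63. After the trend with transcript GC and length was taken out, 2 of the 15 genes were called lower with TAM (ATM at -0.75 and ATR at -0.76), 2 were called higher (RAD1 at 0.88 and TIPIN at 0.68), and 0 were called with Rg3.

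Of 13 genes of the E2F and RB family, 4 were called higher and 2 called lower under Rg3, and 3 called higher and 4 called lower under TAM. E2F1, an activator of S phase genes, fell with Rg3 by 0.70 and rose with TAM by 0.87, whereas RB1, its repressor, rose with Rg3 by 0.72 and fell with TAM by 1.56. With the trend removed, E2F1 lay at -0.04 with Rg3 and 0.44 with TAM and RB1 at -0.17 with Rg3, none of them called, while RB1 with TAM was still called lower, at -0.88. E2F2 had 249, 121 and 254 counts in the control, Rg3 and TAM libraries and fell with Rg3 by 1.38, and lay at -0.88, still called, with the trend removed. Of 17 mitotic genes, 5 were called higher and 2 called lower under Rg3, and 1 called higher and 5 called lower under TAM (median -0.35). CENPF fell with TAM by 2.06 (1497 counts to 310), MKI67 by 1.42 (3641 to 1180) and KIF11 by 1.39 (565 to 187). These 3 were still called lower with the trend removed, at -1.19, -0.73 and -0.71. Each of the 4 PANC-1 markers (KRT8, KRT18, KRT19 and VIM) was called lower with Rg3, with a median of -1.12, and KRT19 fell with TAM by 1.67. With the trend removed, 2 of the 4 were called lower with Rg3 (median -0.70), and with an assumed variation of 0.2, 1 was. CD68 fell with Rg3 by 0.86 and rose with TAM by 1.05.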
